A study of Mus musculus with 6 samples.

Results

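Genes of the T and natural killer (NK) lineages were examined in mouse pre-B leukaemia cells, a cell type outside both lineages. The list holds 33 genes chosen by symbol, and 32 of them had a probe set that the array annotation pairs with 1 gene symbol, out of 19938 genes measured in that way. Tcf7, which encodes the transcription factor TCF1, had no such probe set in the annotation, so its expression is not analysed here. The arrays held RNA of C57Bl/6 cells transformed by the fusion kinase BCR-ABL1, and all of them carried the conditional allele Bcor fl/Y, which leaves a male cell with 1 copy of Bcor on its X chromosome. The cells had been transduced with PMIP-CRE-ERT2, a vector for a Cre recombinase that tamoxifen switches on, or with PMIP-ERT2, which lacks Cre. Both groups were selected with puromycin and kept for 2 days in 4-hydroxytamoxifen at 0.5 micromolar, so the drug and the ERT2 domain were shared and Cre was the difference. Each group had 3 arrays, and whether these came from separate cultures, clones or mice is not stated, so the p-values speak only for the spread between arrays.

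T cells recognise antigen through a receptor whose CD3 and zeta chains carry the signal into the cell, where the kinase ZAP70 phosphorylates the adaptor LAT. NK cells instead read a balance of activating and inhibitory receptors, many of them C-type lectins encoded side by side in one region of chromosome 6, and kill with perforin and granzymes stored in granules. The factors GATA3, TCF1 and BCL11B establish the T lineage, whereas T-bet, EOMES and RUNX3 direct cytotoxic and NK programmes. Bcor encodes a corepressor that binds BCL6 and belongs to the polycomb complex PRC1.1.

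The targeted gene and the cell identity were checked first. The level of Bcor was 10.07, 10.11 and 10.17 (log2) on the ERT2 arrays and 9.08, 9.22 and 9.18 on the Cre-ERT2 arrays, which puts the Cre-ERT2 mean at 51.5% of the ERT2 mean (limma adjusted p = 2.11e-05). Which part of Bcor is floxed, and whether the probes lie in it, is not stated in the sources used here. Among 16 measured B-lineage markers the 2 of highest value were the surrogate light chain Igll1 (mean 14.23) and the receptor chain Cd79b (13.57), each with a mean above that of at least 99.3% of all genes. Of the 16, 3 were called higher, with log2 differences of 0.86 for Dntt, 0.79 for Spib and 0.27 for Cd22. Another 2 were called lower, Rag2 (-0.71) and Rag1 (-0.38). These 5 genes, named after their values were seen, are 31.25% of the list, beside 7.03% called among all genes. The median marker lay between 11.89 and 12.01 on the ERT2 arrays and between 11.95 and 11.97 on the Cre-ERT2 arrays. A median of the list does not show such shifts of single markers. Array medians over all probe sets lay between 8.61 and 8.68. Over all genes 7.03% were called at a limma adjusted p under 0.05, with 4.05% higher and 2.98% lower in Cre-ERT2. That is 808 genes higher and 594 lower, which became 962 and 455 after cyclic loess between arrays.

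Of the 32 measured genes, 4 were called. The adhesion receptor Cd2 and the transcription factor Runx3 rose in Cre-ERT2, and the NK receptors Klrd1 and Ncr1 fell. This is 12.5% of the list, beside the 7.03% called among all genes, and 28 members did not pass the test. No call involved a CD3 chain, a coreceptor, a granzyme or perforin. The absolute differences of the called genes were small, from 0.23 for Ncr1 to 0.49 for Klrd1 on the log2 scale.

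Most of the list sat low on the array scale. The mean log2 value was below the median gene (8.86) for 27 of 32 members, and the members' median was 8.02. The probe sets of different genes bind with different strength, so a value places a gene on this scale but does not rank transcripts by abundance. No detection call was used, and no member can be called absent from these values. The 5 members above the median gene were Cd2 (11.57), Runx3 (11.22), the adaptor Lat (10.04), the surface receptor Cd5 (9.35) and the phosphatase-like regulator Ubash3a (9.19). At the other end were Trat1 (5.28), an adaptor that binds the T cell receptor, the granule protease Gzma (6.46) and the activating receptor Klrk1 (6.58).

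**Figure D1:**
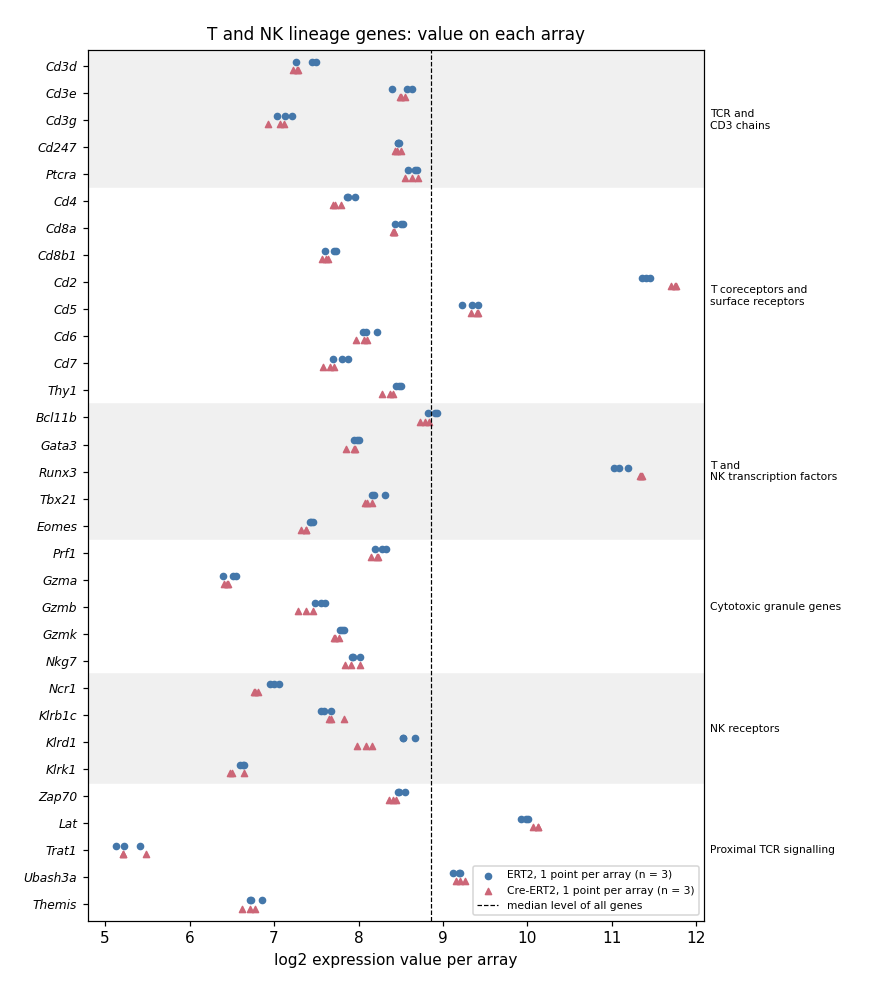
Log2 expression value of each of 32 T and NK lineage genes on each array, grouped by role, with circles for the 3 ERT2 arrays and triangles for the 3 Cre-ERT2 arrays; the dashed line is the median level of all genes (8.86). Cd2, Runx3, Lat, Cd5 and Ubash3a lie to the right of the line. The groups do not overlap for 12 of the 32 genes (37.5%, beside 29.9% of all genes), among them the called Cd2, Runx3, Klrd1 and Ncr1.

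None of the 5 chains of the T cell receptor complex passed the test. Cd3e, which carries part of the signalling tail of the complex, had values of 8.58, 8.40 and 8.63 on the ERT2 arrays and 8.49, 8.55 and 8.50 on the Cre-ERT2 arrays, and the groups overlapped. Its difference was -0.023 (SE 0.0608, adjusted p = 0.848), with a 95% interval from -0.16 to 0.12. Cd3d was at 7.40 ± 0.125 in ERT2 and 7.26 ± 0.0332 in Cre-ERT2 (SD, 3 arrays each), a difference of -0.14 (adjusted p = 0.210). That gene passed only when ERT2 replicate 2 was left out, where it lay at -0.21 (adjusted p = 0.0417). Cd3g was at 7.13 and 7.04, with a difference of -0.087, and the zeta chain gene Cd247 at 8.47 and 8.46, with a difference of -0.010. Ptcra encodes the chain that pairs with a new beta chain in the pre-T cell receptor, and it was at 8.65 and 8.63, with a difference of -0.023. Cd3g, Cd3d and Cd3e are next to each other on chromosome 9, with 0 protein-coding genes between them in the RefSeq gene order, and none of the 3 was called.

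Among the surface receptors Cd2 stood out. CD2 is an adhesion and costimulatory receptor of T and NK cells that binds CD48 in the mouse, and mouse B-lineage cells carry it too. Its values were 11.40, 11.36 and 11.46 on the ERT2 arrays and 11.76, 11.75 and 11.70 on the Cre-ERT2 arrays. Every Cre-ERT2 array was above every ERT2 array. The mean rose from 11.40 ± 0.0489 to 11.74 ± 0.0341 (SD, 3 arrays each), a log2 difference of 0.33 (SE 0.0419, limma adjusted p = 0.00215) or 1.26-fold. The call held under all 16 alternatives, at adjusted p from 0.000225 to 0.0219.

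The other surface receptors were not called. The coreceptor Cd4 had values of 7.87, 7.86 and 7.96 on the ERT2 arrays and 7.70, 7.72 and 7.79 on the Cre-ERT2 arrays. The groups did not overlap, but the difference of -0.16 missed the threshold (SE 0.0447, adjusted p = 0.0684). Cd8a and Cd8b1, which encode the 2 chains of the CD8 coreceptor and are adjacent on chromosome 6, each differed by -0.073, at means of 8.49 and 7.68 in ERT2. The inhibitory receptor Cd5, found on T cells and some B cells, was at 9.33 in ERT2 and 9.38 in Cre-ERT2, a difference of 0.059 (adjusted p = 0.556). Its neighbour and relative Cd6 was at 8.12 and 8.04, a difference of -0.080. Cd7, an early T and NK surface protein, differed by -0.14 (adjusted p = 0.184), and Thy1, the classical marker of mouse T cells, by -0.12 (adjusted p = 0.148).

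Of 5 measured transcription factors, Runx3 alone was called. RUNX3 silences Cd4 in CD8 T cells, and it acts in NK cells and in B cells as well. The values were 11.08, 11.02 and 11.20 on the ERT2 arrays and 11.34, 11.35 and 11.35 on the Cre-ERT2 arrays. Here the Cre-ERT2 arrays were nearly equal and all above the ERT2 arrays, which were spread more widely (SD 0.00917 against 0.0880). The difference was 0.25 (SE 0.0492, limma adjusted p = 0.0198), or 1.19-fold. It missed the threshold without ERT2 replicate 1 (0.24, adjusted p = 0.0818), ERT2 replicate 2 (0.21, 0.0592), Cre-ERT2 replicate 1 (0.25, 0.0600) or Cre-ERT2 replicate 2 (0.24, 0.0811). Over all its alternatives the adjusted p ran from 0.00268 to 0.0818.

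The other lineage factors lay lower and were not called. Bcl11b, needed for T cell commitment, was at 8.89 in ERT2 and 8.79 in Cre-ERT2 (-0.10, adjusted p = 0.241). Gata3 was at 7.98 and 7.92 (-0.058, adjusted p = 0.457). Tbx21, which encodes T-bet, was at 8.22 and 8.11 (-0.10, adjusted p = 0.264), and Eomes at 7.44 and 7.35 (-0.086, adjusted p = 0.217). All 4 lay under the median gene, where 76.5% of all genes had a difference below 0.

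Runx3 starts from a distal and a proximal promoter, and Ncr1 is described in NK cells as a gene under RUNX control, so the start regions of these called genes are shown. Each window holds 300 bases around a RefSeq start, most of them before it (GRCm38.p6, plus strand, 5′ to 3′), and capitals mark the RUNX core TGTGGT or its reverse complement ACCACA.
Runx3, upstream start, chr4:135120395-135120694: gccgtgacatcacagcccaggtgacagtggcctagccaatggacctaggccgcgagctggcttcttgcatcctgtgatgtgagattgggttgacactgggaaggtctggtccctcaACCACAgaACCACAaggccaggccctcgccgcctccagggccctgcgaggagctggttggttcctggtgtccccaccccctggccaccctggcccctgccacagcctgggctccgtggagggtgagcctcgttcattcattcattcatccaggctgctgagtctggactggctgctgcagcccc
Runx3, downstream start, chr4:135152295-135152594: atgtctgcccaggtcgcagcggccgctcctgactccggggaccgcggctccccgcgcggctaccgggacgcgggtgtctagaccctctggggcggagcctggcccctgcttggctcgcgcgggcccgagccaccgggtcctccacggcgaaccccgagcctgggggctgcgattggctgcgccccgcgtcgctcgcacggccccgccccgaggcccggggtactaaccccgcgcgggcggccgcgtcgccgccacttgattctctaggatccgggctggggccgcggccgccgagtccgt
Ncr1, chr7:4337465-4337764: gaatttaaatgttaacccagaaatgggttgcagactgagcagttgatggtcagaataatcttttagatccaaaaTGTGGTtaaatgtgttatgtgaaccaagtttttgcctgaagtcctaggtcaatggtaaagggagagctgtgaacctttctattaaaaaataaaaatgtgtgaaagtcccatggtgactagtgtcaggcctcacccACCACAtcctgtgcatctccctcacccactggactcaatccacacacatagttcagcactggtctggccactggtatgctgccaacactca
The upstream Runx3 window holds 2 copies of the core, starting at bases 117 and 125 of the window and both on the minus strand, and the downstream window holds 0. The Ncr1 window holds 2, at base 75 on the plus strand and base 210 on the minus strand, and a second listed Ncr1 start overlaps this window with the same 2 matches. The windows of Cd2 and Klrd1 were not in the promoter table, which matched 26 of the 33 listed genes.

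The RUNX core was searched on both strands of all promoter windows of 300 bases. It was found in 16.8% of 32851 windows, and in 12 of the 32 windows of the 26 listed genes in the promoter table (37.5%). Some of these windows overlap. By role, 4 of 5 granule genes held it (Prf1, Gzma, Gzmb and Nkg7), as did all 3 NK receptors with a window (Ncr1, Klrb1c and Klrk1) and 3 of 5 proximal signalling genes. Of the 6 transcription factors, Tcf7 included, 1 did (Runx3). None of the 5 chains of the T cell receptor complex did (0 of 5), nor did Cd5 or Cd8a. The T-box core GGTGTGA was in 9.38% of the listed genes' windows against 3.98% of all, the STAT palindrome TTCNNNGAA in 9.38% against 8.30%, the TCF and LEF core CTTTGA in 21.9% against 16%, and the GATA core AGATAA in 6.25% against 11.2%. Matches of different motifs may overlap in a window. The printed Runx3 and Ncr1 windows held none of these other motifs, and a match of letters is a description, not a bound site.

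The granule genes were low and none was called. Perforin, the pore-forming protein encoded by Prf1, was at 8.27 ± 0.0624 in ERT2 and 8.20 ± 0.0482 in Cre-ERT2 (-0.067, adjusted p = 0.423). Gzmb, the granzyme that cleaves caspases in target cells, had values of 7.56, 7.49 and 7.60 on the ERT2 arrays and 7.46, 7.28 and 7.37 on the Cre-ERT2 arrays. These groups did not overlap, but the difference of -0.18 missed the threshold (adjusted p = 0.0964). Gzma was at 6.49 and 6.43 (-0.053) and its chromosome 13 neighbour Gzmk at 7.81 and 7.74 (-0.070). Nkg7, a membrane protein of cytotoxic granules, was at 7.96 and 7.92 (-0.042). The 5 differences were all below 0, with a median of -0.067 beside -0.037 for all genes, and Gzma turned to 0.0057 with array weights and Nkg7 to 0.0012 without Cre-ERT2 replicate 1.

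The NK receptors held both falls on the list. KLRD1, also called CD94, forms heterodimers with NKG2 proteins that recognise a non-classical MHC class I molecule. Klrd1 had values of 8.53, 8.53 and 8.66 on the ERT2 arrays and 7.99, 8.17 and 8.09 on the Cre-ERT2 arrays. All Cre-ERT2 arrays lay below all ERT2 arrays. The mean fell from 8.57 ± 0.0795 to 8.08 ± 0.0891 (SD, 3 arrays each), by 0.49 on the log2 scale (SE 0.0585, limma adjusted p = 0.00154), which leaves 71.1% of the ERT2 level. The call held in all 15 alternatives that included the gene, at adjusted p from 0.000372 to 0.0104. In RNA of a whole culture, fewer cells with a transcript and less of it per cell cannot be told apart.

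Ncr1 encodes NKp46, an activating receptor that is among the most specific markers of NK cells. It had values of 6.96, 7.06 and 7.004 on the ERT2 arrays and 6.77, 6.80 and 6.76 on the Cre-ERT2 arrays. The groups did not overlap, although only 11.4% of genes had a lower mean value than Ncr1. The difference was -0.23 (SE 0.0410, limma adjusted p = 0.0127), and with no detection call the signal is not shown to be above background. Without Cre-ERT2 replicate 1 it missed the threshold (-0.22, adjusted p = 0.0529). The other 2 NK receptors were not called. Klrb1c, which encodes NK1.1 in this strain, was at 7.61 and 7.72 (0.11, adjusted p = 0.270), and Klrk1, which encodes the activating receptor NKG2D, at 6.62 and 6.54 (-0.083, adjusted p = 0.353).

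**Figure D2:**
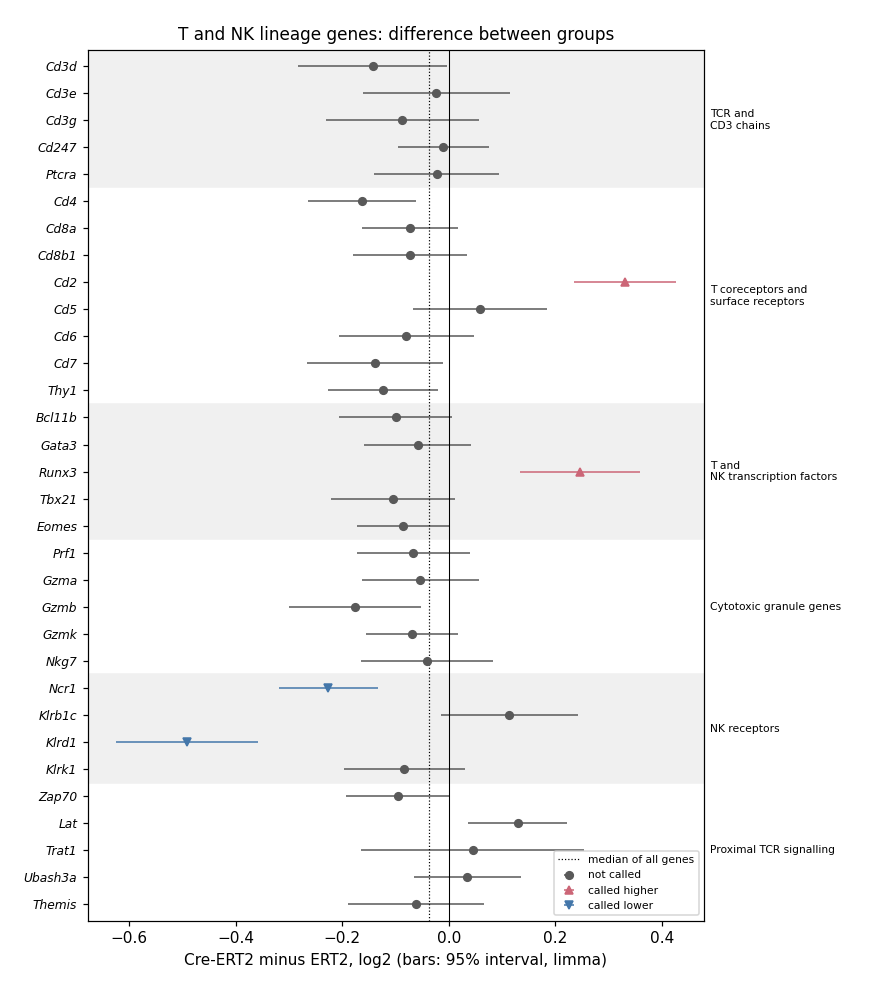
Difference between group means (Cre-ERT2 minus ERT2, log2) for 32 T and NK lineage genes by role, with 95% intervals from limma; upward triangles were called higher, downward triangles called lower and circles not called, and the dotted line is the median of all genes (-0.037). Klrd1 (-0.49) and Cd2 (0.33) are the outermost points, and the circles lie between -0.18 and 0.13.

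Klrd1, Klrk1 and Klrb1c belong to the NK receptor region of chromosome 6, which was described gene by gene after their values had been seen. From Klrb1a to Klra1 the RefSeq order lists 42 protein-coding genes, of which 35 were measured and 4 were called, 2 higher and 2 lower (11.4%, beside 7.03% of all genes). The lectin-like receptor Klrb1f rose by 0.84 (10.47 ± 0.0604 to 11.30 ± 0.0337, SD, limma adjusted p = 2.18e-05). Near it Clec2i, of the family of KLRB1 ligands, rose by 0.54 (10.80 to 11.34, adjusted p = 0.000155). The activation marker Cd69 fell by 0.33 (12.79 to 12.46, adjusted p = 0.000816), and Klrd1 fell as given. Between Klrb1f and Klrd1 there were 14 other genes, and the genes directly beside Klrd1, Klre1 (-0.067) and Klrk1 (-0.083), were not called. The genes of the NKG2 partners of KLRD1 were not called either. Klrc1 was at 6.08 and 5.94 in the 2 groups, Klrc2 at 6.75 and 6.71, and Klrc3 at 4.14 and 4.01. Of 19 measured genes named Klr, the 17 not called had means between 4.07 and 8.83. Members of these lectin families have similar sequences, and their probes may read more than 1 of them. With array weights 9 genes of the region were called rather than 4, and 3339 of all genes rather than 1402.

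**Figure D3:**
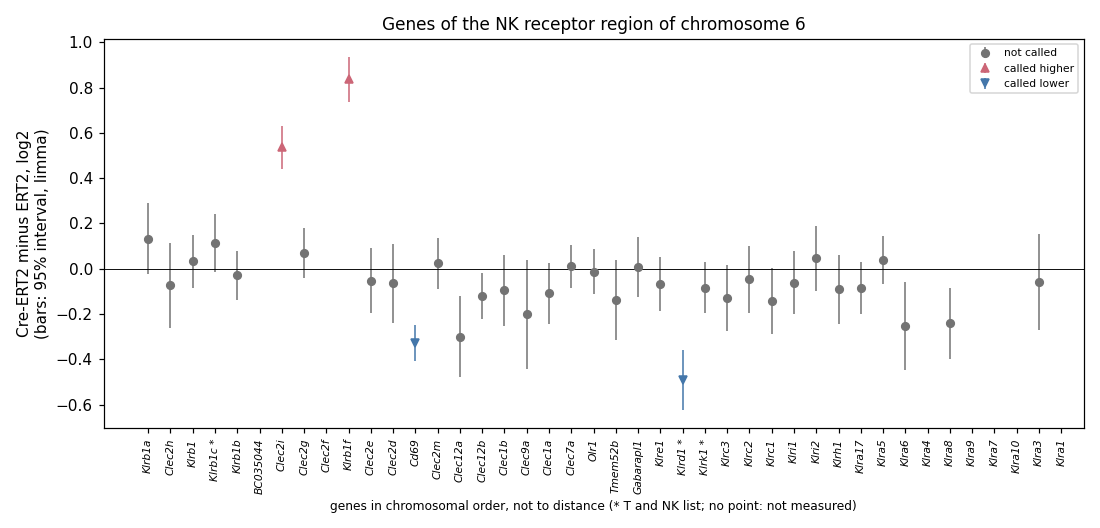
Difference (Cre-ERT2 minus ERT2, log2) with 95% limma intervals for 35 measured genes of the NK receptor region of chromosome 6, spaced evenly in chromosomal order. Klrb1f (0.84) and Clec2i (0.54) were higher, Klrd1 (-0.49) and Cd69 (-0.33) lower, and the other 31 measured genes were not called.

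Of the proximal signalling genes, 0 of 5 were called by limma. An unadjusted limma p under 0.05 was reached by 1 of the 5, Lat, beside 23% of all genes. The adaptor Lat, which gathers phospholipase C gamma and other effectors, had values of 9.93, 9.99 and 10.01 on the ERT2 arrays and 10.13, 10.12 and 10.06 on the Cre-ERT2 arrays. The groups did not overlap, and the difference of 0.13 missed the threshold (SE 0.0408, adjusted p = 0.105). Lat was called with array weights, where 16.7% of all genes were called. It was also called without the 50% of genes of lowest mean, where 17.1% of the remaining genes were called. Zap70, which some B-lineage leukaemias express, was at 8.50 and 8.40 (-0.096, adjusted p = 0.222), again with groups that did not overlap. Ubash3a, which restrains signalling from the T cell receptor, was at 9.17 and 9.20 (0.034). Themis, needed in thymocyte selection, was at 6.76 and 6.70 (-0.062). Trat1 had the largest spread on the list, with a residual SD of 0.153 and a difference of 0.045.

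Direction followed level in this list. The differences were below 0 for 25 of the 27 members under the median gene and above 0 for all 5 members over it. Among all genes, 76.5% of those under the median level and 59.8% of those over it were below 0, so a small negative difference was the usual state of a low gene on these arrays. The members' median was -0.071 beside -0.037 for all genes, and -0.080 for the 27 low members beside -0.050 for all low genes. After cyclic loess between arrays the members' median was -0.033, that of all genes -0.011, and 22 members were below 0. Groups did not overlap for 12 of 32 members (37.5%), beside 29.9% of all genes. Of the 32, 9 lay apart and lower in Cre-ERT2, beside 20.3% of all genes, and 3 apart and higher, beside 9.56%. An unadjusted limma p under 0.05 was reached by 11 of 32 members, beside 23% of all genes.

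**Figure D4:**
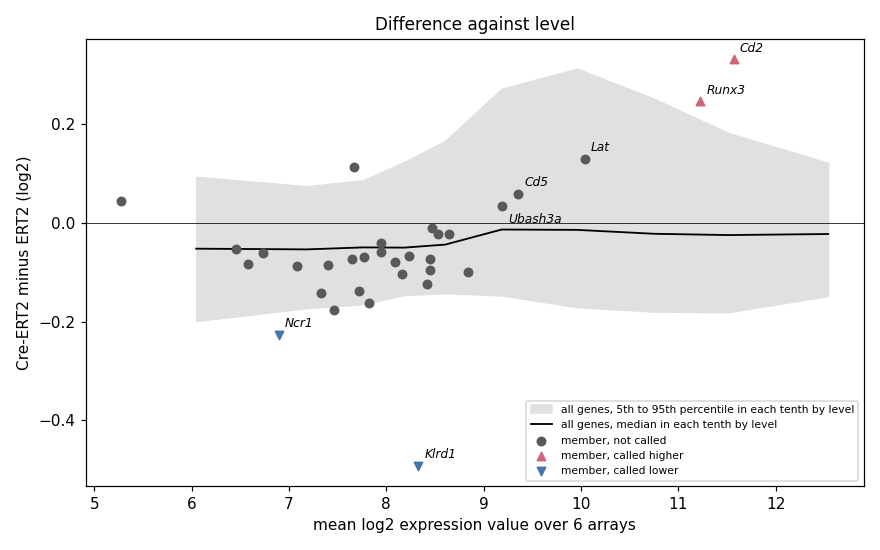
Difference (Cre-ERT2 minus ERT2, log2) against mean log2 value over 6 arrays for 32 T and NK lineage genes, drawn over the median (line) and the 5th to 95th percentile (band) of all genes in each of 10 equal bins by level. Klrd1, Ncr1 and the uncalled Gzmb lie below the band, Cd2, Runx3 and the uncalled Klrb1c above it, and the low members cluster beneath 0 with the line.

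Further genes of T and NK cells came from 3 pathway lists that, like the main list, were drawn up with earlier results of these data known. The share called is given for each, and the lists were not tested against each other or against all genes. Among all genes 3.46% of those under the median level were called and 10.6% of those over it. Of 35 measured genes of T cell receptor signalling and costimulation 9 rose and 6 fell (42.9% called, beside 7.03% of all genes), with a median difference of -0.031, and 14 of the 35 lay under the median gene. The inhibitory receptor Ctla4 rose by 0.996 (9.87 ± 0.0281 to 10.86 ± 0.0359, SD, adjusted p = 5.57e-06). Il2ra, the alpha chain of the interleukin 2 receptor, rose by 0.94 (11.43 to 12.37), and the inhibitory receptor Tigit by 0.80 (9.64 to 10.44). The phosphatase gene Ptpn22, a brake on signals from antigen receptors, fell by 0.90 (9.47 to 8.57). Some of these genes act below ZAP70 and were named after their values were seen. The phospholipase Plcg1 fell by 0.42 (11.21 to 10.79, adjusted p = 0.000345), the adaptor Lcp2, or SLP-76, fell by 0.32 (9.09 to 8.77, adjusted p = 0.00596), and the kinase Prkcq rose by 0.36 (9.89 to 10.26, adjusted p = 0.000988). Many of these genes also act in B cells. The other 20 measured genes of the list were not called, among them Vav1 (0.0070), Rasgrp1 (-0.030) and Nfatc1 (0.077). With any array left out, 12 or 13 genes of this list were called.

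Of 35 measured NK and cytotoxic effector genes 2 rose and 0 fell (5.71% called, beside 7.03% of all genes). They were Klrb1f and the chemokine Ccl3, which rose by 0.53 (12.27 ± 0.0660 to 12.79 ± 0.0755, SD, adjusted p = 0.000537). The median difference was -0.050, and 31 of the 35 lay under the median gene. Without Cre-ERT2 replicate 3, 4 were called (3 higher and 1 lower), where 6.73% of all genes were called. With array weights 9 were (4 higher and 5 lower), where 16.7% of all genes were called.

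Of 28 other transcription factors of T and NK cells 8 rose and 1 fell (32.1% called, beside 7.03% of all genes). Their median difference was 0.019, and 6 of the 28 lay under the median gene. Id2, which blocks E proteins and is needed for NK cells, rose by 1.03 (10.46 ± 0.0612 to 11.49 ± 0.132, SD, adjusted p = 5.39e-05). Notch1, the receptor that drives T cell commitment, rose by 0.60 (10.58 to 11.17), and its target Hes1 by 0.60 (9.95 to 10.56). In the same list Notch3 (-0.055, adjusted p = 0.605) and Dtx1 (0.032, adjusted p = 0.793) were not called. Whether Notch signalling changed was not tested. Nfil3, needed early in NK development, rose by 0.40 (9.20 to 9.60, adjusted p = 0.00865). The 1 that fell was Id3, also an inhibitor of E proteins, by 0.36 (10.14 to 9.78, adjusted p = 0.00392). Between 8 and 9 of them were called with any array left out, and 14 with array weights, where 16.7% of all genes were called.

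**Figure D5:**
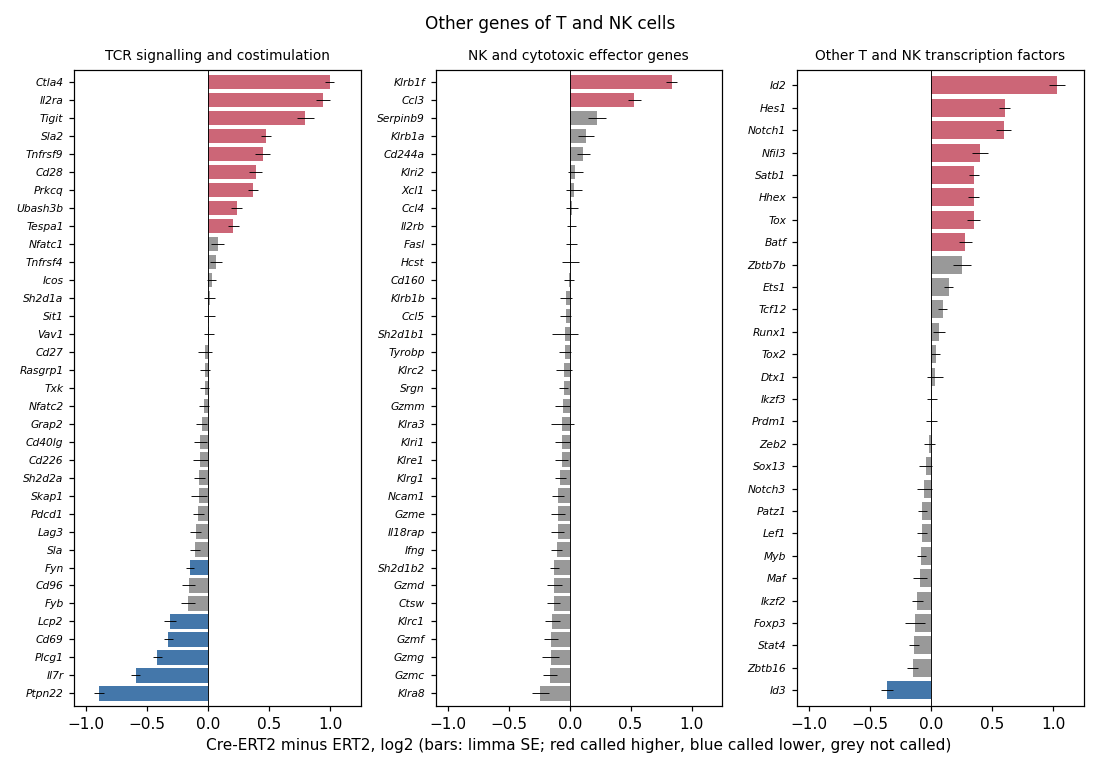
Difference (Cre-ERT2 minus ERT2, log2) of each measured gene in 3 further lists of T and NK genes, bars with limma standard errors, ordered by size; red bars were called higher, blue lower and grey not called. The signalling list has calls on both sides (9 higher, 6 lower), the NK and cytotoxic list has 2 and the list of transcription factors has 8 higher and 1 lower.

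Markers of other cell types were read beside these results, and no value on this log scale is 0. For these counts the shares over all genes are 7.03% called, 23% with an unadjusted p under 0.05 and 16.7% called with array weights. Of 10 T cell markers 0 were called by limma (2 had an unadjusted p under 0.05, and 1 was called with array weights), and the median marker lay between 7.73 and 7.85 on the ERT2 arrays and between 7.65 and 7.70 on the Cre-ERT2 arrays. The 2 highest were Ubash3a and Bcl11b, given above. Of 9 NK cell markers 1 was called, Ncr1 (lower). With array weights 2 were, both lower, and without Cre-ERT2 replicate 1 limma called 0 (in the full fit 3 had an unadjusted p under 0.05). For this list the median marker lay between 6.57 and 6.80 in ERT2 and between 6.44 and 6.51 in Cre-ERT2. Prf1 and Klrb1c were the highest of these. Of 12 myeloid markers 2 were called higher and 0 lower by limma (5 had an unadjusted p under 0.05), and 8 of the 12 differences were below 0. With array weights 2 of the list were called higher and 2 lower. Lyz2 rose by 0.45 (to 10.21, adjusted p = 0.00488). Fcgr1, chosen after its value was seen, rose by 0.35 (adjusted p = 0.0294). Fcgr1 missed the threshold when ERT2 replicate 2, ERT2 replicate 3, Cre-ERT2 replicate 1 or Cre-ERT2 replicate 2 was dropped (adjusted p up to 0.112). Elane, next to Lyz2 in mean among the myeloid markers but under the median gene (8.38), differed by -0.13 (adjusted p = 0.208). Of 7 plasmacytoid dendritic cell markers 0 were called by limma (2 with an unadjusted p under 0.05, and 1 with array weights), the highest being Irf8 (12.55) and Tcf4 (11.81), which B-lineage cells also express. Of 6 erythroid and megakaryocyte markers 0 were called (0 with an unadjusted p under 0.05, and 0 with array weights), with Tfrc at 12.61 and Itga2b at 8.89. Of 10 stromal markers 0 were called (4 with an unadjusted p under 0.05, and 2 with array weights), with Col1a1 at 9.61 and Col1a2 at 9.12. Whether a few T, NK or myeloid cells in the cultures had a part in the calls of Cd2, Runx3, Klrd1 or Ncr1 was not tested.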

How the data were processed

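Expression was measured on 6 Affymetrix arrays. The deposited tables give 1 log2 value for each probe set and array, and the submitters' processing notes name RMA and Partek 6.5 with no role or order; the genome build and background setting are not given in the sources used here. No depth or detection limit can be read from them, and the number of arrays limits the precision. Of 35556 probe sets, 21789 have 1 gene symbol, 1621 have several and 12146 are not listed with a gene; gene identifiers of 21698 matched the RefSeq table (GRCm38.p6), which gave names, gene order and promoter windows. Each gene took its probe set of highest mean over the 6 arrays, and each listed gene had a single candidate.

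The difference Cre-ERT2 minus ERT2 came from lmFit and eBayes of limma 3.58.1 (R 4.3.3), run across 19938 genes, with Benjamini-Hochberg adjustment over all of them and a call at an adjusted p under 0.05. The fit was tested on simulated data in which 100 genes were changed. It recovered 41% of them at a log2 difference of 0.25 and 84% at 0.5. Differences near 0.25 were therefore often missed there, and a gene not called is not shown to be unchanged. The named genes were all listed members, Bcor, up to 4 called genes of largest change per further list and the 2 highest of each marker list. Members and lists were chosen with earlier results of these data known. Alternatives were the replicate block, an intensity trend, array weights, quantile, median and cyclic loess scaling, filters on low genes, the mean of probe sets, an adjusted p under 0.1 and each array left out. Plots used matplotlib 3.10.9 in Python 3.11.15.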

Additional observations from a re-analysis of the deposited data

How the results depend on the processing

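Cd2 and Runx3 were the 2 genes called higher. Of these 1 was called with the replicate block, where Runx3 had an adjusted p of 0.0548, and 1 to 2 with single arrays left out. Against 2 genes called lower (Klrd1 and Ncr1), 4 were called with array weights and 4 at an adjusted p under 0.1, Cd4 and Gzmb being added in both cases. Without the 30% of genes of lowest mean 1 was called lower and without the lowest 50% 0 were, because only 16 and 5 listed genes then remained, and with single arrays left out 1 to 3 were. Quantile normalization, median centring, cyclic loess, the intensity trend and the mean of probe sets kept both counts and the same 4 genes.

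Signs turned only for genes near 0 that were not called. Under cyclic loess Cd3e was at 0.0038, Cd247 at 0.018 and Ptcra at 0.0018, and with array weights Gzma was at 0.0057 and Trat1 at -0.090. With single arrays left out Cd3e ran from -0.091 to 0.025, Cd247 from -0.030 to 0.0029, Ptcra from -0.060 to 0.017, Nkg7 from -0.091 to 0.0012, the erythroid marker Tfrc from -0.059 to 0.011, and Trat1 from -0.047 to 0.13. Over all genes the calls were 1315 higher and 2024 lower with array weights, against 808 and 594. An adjusted p under 0.1 gave 1081 and 1190, and single arrays left out gave 513 to 713 higher and 214 to 628 lower. The replicate block left 546 higher and 259 lower over all genes. For arrays of the same replicate number, the correlation of their deviations from the group means was 0.051, -0.095 and -0.26. With 3 arrays per group these values give no sign of pairing by number, but they cannot exclude it. Each group has 3 arrays, and differences near 0.1 on the log2 scale were mostly not separable from the spread.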
